A study of Mus musculus with 31 samples.

Results

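Immune cells carrying CD45.2, a pan-leukocyte surface protein, were sorted from mouse mammary tumours 5 days after local radiotherapy with 1 dose of 20 Gy and compared by bulk RNA-seq with the same sort from mock-irradiated tumours. The comparison was set by the sample titles alone and holds 6 libraries after 20 Gy (called 1x20Gy) and 4 mock libraries (called 1x0Gy), 10 of the 31 libraries of the series. Of the 38406 genes in the count tables, 12021 had enough counts to be tested. Every mouse was a wild-type C57BL/6 female with a tumour of AT3-OVA, a triple negative mammary tumour line carrying the model antigen ovalbumin, grown in the mammary fat pad. 1x20Gy tumours received 20 Gy in 1 fraction from a 6 MeV electron beam, through openings in a lead shield over the animal. 1x0Gy tumours received 0 Gy, with the same ketamine and xylazine anaesthesia. All RNA had an integrity number above 8.5. The tumours come from 1 transplanted line, and the sort pools all CD45.2+ cells of a tumour, so that fewer cells of a type and less RNA per cell cannot be told apart in any result below. The labels do not tie each library to an animal of its own, so p-values measure the spread between libraries labelled as replicates. The study's title names dose fractionation and immune modulation, and the comparison asks what the single large dose was followed by in the tumour's immune cells.

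Ionising radiation breaks DNA, and damaged cells stabilise p53, which switches on arrest and repair genes such as Cdkn1a. Irradiated tissue also draws in immune cells through chemokines such as the Cxcr2 ligands Cxcl1 and Cxcl2, which attract neutrophils. In tumours, regulatory T cells, marked by the transcription factor Foxp3, restrain the cytotoxic CD8+ T cells that can kill tumour cells. Macrophages, monocytes and dendritic cells make up much of the remaining CD45+ compartment.

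Gene counts per library ran from 4259013 to 5445094 in 1x20Gy and from 5647013 to 7541144 in 1x0Gy (exact permutation p = 0.00476, the smallest 6 against 4 libraries allow, two-sided; adjusted p = 0.00952 over 4 library measures). Genes with at least 1 count numbered 15594 to 16041 in 1x20Gy and 16208 to 16360 in 1x0Gy (exact permutation p = 0.00476, adjusted 0.00952). Reads outside annotated genes took 23.5 ± 4.51% in 1x20Gy (SD, n = 6) and 16.9 ± 1.20% in 1x0Gy (n = 4; exact permutation p = 0.0238, adjusted 0.0317). The raw exact p was 0.0595 when 1x0Gy library 2, 3 or 4 was left out. RP23-81C12.3, known only by a clone name, held 10.5 ± 4.69% of gene counts in 1x20Gy and 3.67 ± 1.68% in 1x0Gy (n = 6 and 4; exact permutation p = 0.0381, adjusted 0.0381). Without that gene edgeR called 380 genes higher and 627 lower at an adjusted p below 0.05, 955 of them among the 1028 called with it, an alternative chosen after seeing the data. With the outside share as a covariate it called 737 genes, 591 of them among the 1028, and all 1028 kept their sign. Of the called genes named by rule, Lat, Cd28, Icos, Lcn2, Ccr2, Maf, Trem2, Plin2, Gpnmb, Ptgs2, Wdfy4, Relb, Il4i1, Gata2, Oas2, H2-T23, H2-DMb2, Cxcr2, Tnfsf9, Lgals9, Rad54l, Bnip3, Egln3, Hspa1b, Hsph1, Col4a1, Kdr and Hba-a1 were not called in that fit (adjusted p between 0.0525 and 0.364). The part of these library measures in the gene results was not tested further. The leukocyte genes Ptprc (the CD45 gene itself), Cd52, Coro1a and Laptm5 were abundant in all 10 libraries and none was called, with Ptprc between 612 and 1009 CPM (counts scaled to library size) in 1x20Gy and between 628 and 1042 CPM in 1x0Gy. 1x20Gy library 2 stood apart from its group in neutrophil genes (S100a8 at 321 CPM against at most 122 CPM in the other 5) and in Arg1 (64.4 CPM against at most 5.07 CPM).

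After 20 Gy, 9 of 13 regulatory T cell genes, 6 of 11 mast cell, basophil and eosinophil genes, 5 of 13 neutrophil genes and 8 of 30 cell cycle genes were called higher, as were the chemokines Cxcl1 and Cxcl2, the cytokine subunits Inhba and Il23a, the stress gene Chac1 and Cdkn1a. Of the epithelial and tumour cell markers 10 of 21 were called lower, as were 5 of 15 fibroblast and matrix genes, 2 of 5 imprinted growth genes, the interferon-induced Bst2 and the cytokine gene Tgfb1. The lists and their members were chosen with earlier results of these data known. Their counts here and below are therefore a description and not independent support. In all, 441 genes were called higher (3.67% of the 12021 tested) and 587 lower (4.88%), at an adjusted p below 0.05 in edgeR's quasi-likelihood test. At least 2-fold changes were 181 of the higher and 449 of the lower calls, and the median log2 fold change of all genes was 0.02. The groups did not overlap for 654 genes in the higher direction (5.44%) and for 730 in the lower direction (6.07%). Fewer calls were left without 1x20Gy library 3 (270 higher), without 1x0Gy library 1 (288 higher), library 3 (229 higher, 353 lower) or library 4 (179 higher, 377 lower), and each of the 1028 genes kept its direction in every one of these 10 fits that tested it.

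Epithelial and fibroblast RNA in the sort moved with the groups and stands beside every result here. The summed level of 21 tested epithelial and tumour cell markers ran from 255 to 728 CPM in 1x20Gy and from 677 to 1149 CPM in 1x0Gy, and that of 15 fibroblast and matrix genes from 117 to 210 CPM against 176 to 372 CPM. A score of both lists, their mean log2 CPM, was 1.86 to 3.41 in 1x20Gy and 3.52 to 4.61 in 1x0Gy, without overlap. With that score as a covariate edgeR called 84 genes (54 higher, 30 lower), 77 of them among the 1028, and 1004 of the 1028 kept their sign. Over the 1028, the fold change on the log2 scale with the score had a median of 0.792 times that without it, and its SE 1.38 times. Some values were nearly as large with the score as without it, as for Cd5 (1.75 and 1.67), Lag3 (-2.46 and -2.32), Tgfb1 (-0.97 and -0.96) and Cdkn1a (0.98 and 1.11), though none of these was called with it. Others were near 0 with the score, as for Epcam (-0.24 and -1.80) and Lcn2 (-0.21 and -1.98). Epcam and Lcn2 are themselves in the lists that make the score, so a smaller value is partly built into that fit. Of the 106 called genes named by rule, 26 kept the call with the score and 65 kept it in each of the 10 fits that leave out 1 library. Of the 26, 25 kept it in both: Chac1, Inhba, Ctla4, Podnl1, Klrg1, Cpm, Foxp3, Folr4, Tnfrsf4, Ddit4, Aen, Ube2c, Plk1, Birc5 and Il23a among the higher, and Wif1, Mgp, Peg3, Col16a1, Sertad4, Foxc1, Gja1, Pigr, Bst2 and Icosl among the lower. Wif1 and Mgp are themselves in the lists that make the score. Phlda3 kept its call with the score (2.25, adjusted p = 0.0193) but not in each of those 10 fits. The remaining named calls were lost with the score, and the part of epithelial and fibroblast RNA in them was not tested further. The score and the dose do not overlap in these 10 libraries and cannot be fully told apart.

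**Figure D1:**
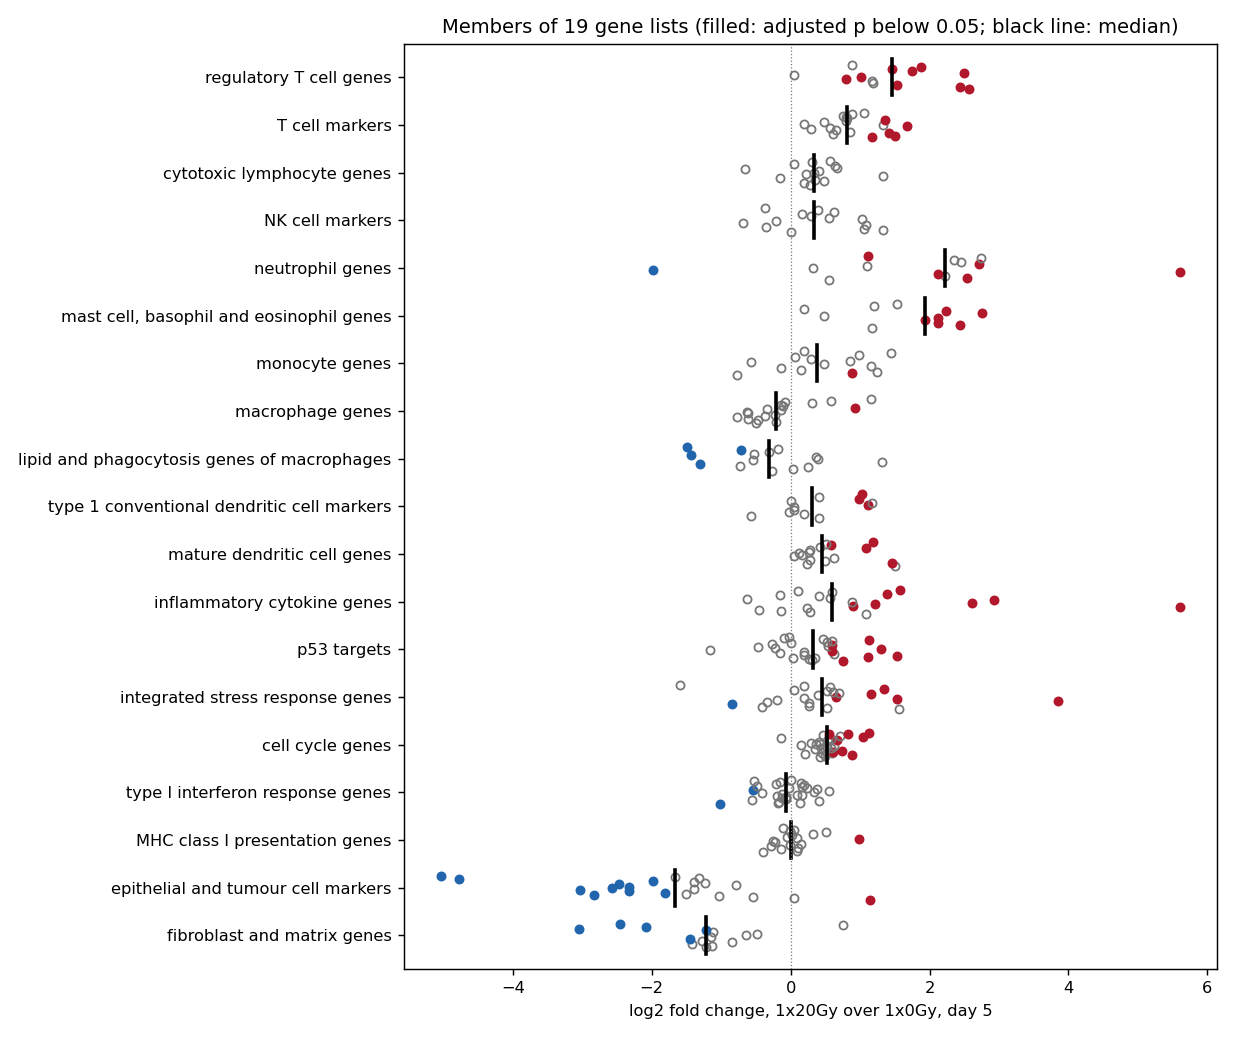
Log2 fold change of 1x20Gy over 1x0Gy on day 5 (horizontal axis) for each tested member of 19 gene lists (rows). Filled points were called at an adjusted p below 0.05, red higher and blue lower, and black lines are list medians. Regulatory T cell genes (median 1.46), mast cell, basophil and eosinophil genes (1.93) and neutrophil genes (2.23) lie furthest right, epithelial (-1.67) and fibroblast genes (-1.22) furthest left.

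Regulatory T cell genes were higher in 1x20Gy. Of 13 tested members of that list, 9 rose and 0 fell, and all 13 had positive values, with a median log2 fold change of 1.46. Leaving out 1 library at a time left between 6 and 9 calls, and 4 stayed called with the epithelial and fibroblast score. Foxp3, the lineage factor of these cells, ran from 13.0 to 33.2 CPM in 1x20Gy with a median of 16.1 CPM, against 6.00, 4.63, 1.47 and 2.86 CPM in 1x0Gy. Every 1x20Gy library was above every 1x0Gy library, and libraries 3 and 4 were the highest. The fold change was 5.41 (log2 2.44, SE 0.46, adjusted p = 0.00173). Ctla4, the inhibitory receptor that competes with Cd28 for its ligands, ran from 89.5 to 348 CPM in 1x20Gy (median 160 CPM), against 46.2, 52.6, 14.6 and 21.5 CPM in 1x0Gy. Its groups did not overlap either, at a fold change of 5.93 (log2 2.57, SE 0.44, adjusted p = 0.000815). Klrg1, an inhibitory lectin-like receptor of effector T, regulatory T and NK cells, ran from 20.4 to 51.1 CPM in 1x20Gy (median 31.1 CPM), against 7.79, 9.11, 4.09 and 2.69 CPM in 1x0Gy (log2 fold change 2.49, SE 0.42, adjusted p = 0.000713). Tnfrsf4 (OX40), a costimulatory receptor, was at 76.7 to 224 CPM in 1x20Gy (median 121 CPM), against 44.8, 56.2, 20.8 and 26.5 CPM in 1x0Gy (log2 1.88, SE 0.40, adjusted p = 0.00425). Folr4, an older symbol of Izumo1r (folate receptor 4), a receptor enriched on regulatory T cells, was among the 12 largest increases of called genes averaging 5 CPM or more, although no list held it (log2 2.39, SE 0.45, adjusted p = 0.00169). Icos, the inducible costimulator, rose by 1.53 (SE 0.45, adjusted p = 0.0348), a call lost without 1x20Gy library 2, 3 or 4 or 1x0Gy library 1, 3 or 4 (adjusted p between 0.0549 and 0.141). On GRCm38, Foxp3 lies on chromosome X (7573644 to 7595245, plus strand), Ctla4 on chromosome 1 (60887000 to 60915832, plus strand) and Klrg1 on chromosome 6 (122270596 to 122282882, minus strand).

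Of 19 tested T cell markers, 5 rose and 0 fell, with a median of 0.82. Their summed level ran from 612 to 1714 CPM in 1x20Gy and from 324 to 996 CPM in 1x0Gy, so the groups overlapped. The count was 2 without 1x0Gy library 3 or 4, 3 without 1x20Gy library 2, 3 or 4 or 1x0Gy library 1, and 0 with the epithelial and fibroblast score. Cd5, which dampens antigen receptor signals, was at 34.2 to 92.8 CPM in 1x20Gy (median 65.6 CPM), against 25.3, 28.9, 9.496 and 15.4 CPM in 1x0Gy (log2 fold change 1.67, SE 0.34, adjusted p = 0.00333). Cd2, an adhesion receptor of T and NK cells, rose by 1.5 (SE 0.35, adjusted p = 0.00887). The adaptor Lat rose by 1.36 (adjusted p = 0.0204; 0.092 and 0.0946 without 1x0Gy library 3 and 4) and the costimulatory receptor Cd28 by 1.42 (adjusted p = 0.0317; between 0.0501 and 0.133 without 1x20Gy library 2, 3 or 4 or 1x0Gy library 1, 3 or 4). The lineage genes themselves were not called. Cd8a was at 46.2 to 162 CPM in 1x20Gy (median 96.1 CPM), against 135, 142, 37.7 and 35.3 CPM in 1x0Gy (log2 0.20, SE 0.40, adjusted p = 0.829), with log2 values of -0.06 and -0.07 without 1x0Gy library 3 and 4. Cd4 was at 19.8 to 39.6 CPM in 1x20Gy (median 23.1 CPM), against 17.7, 23.2, 12.9 and 14.7 CPM in 1x0Gy (log2 0.56, SE 0.26, adjusted p = 0.200).

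Cd3e, a chain of the T cell receptor complex, was at 21.7 to 62.8 CPM in 1x20Gy, against 41.4, 32.9, 6.55 and 12.4 CPM in 1x0Gy. The first 2 mocks lay within the 1x20Gy range and the other two below it. Set against Cd3e within each library, Foxp3 amounted to 42.5 to 88.9 CPM per 100 CPM of Cd3e in 1x20Gy (median 48.5) and to 14.1 to 23.2 in 1x0Gy (median 18.5). Ctla4 amounted to 411 to 809 CPM per 100 CPM of Cd3e in 1x20Gy and to 112 to 222 in 1x0Gy. For both genes the ratio did not overlap between groups. Cd8a amounted to 210 to 400 CPM per 100 CPM of Cd3e in 1x20Gy (median 252) and 286 to 575 in 1x0Gy (median 378), with overlap, and the ratios of Il2ra, Icos, Tnfrsf4, Gzmb and Ifng overlapped as well. These ratios are a description without a test, and they are not corrected for gene length.

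Of 15 tested cytotoxic lymphocyte genes edgeR called 0 (median 0.33), with 1 at an unadjusted p below 0.05, and DESeq2 and limma voom each called 1 higher. Gzmb, the granule protease granzyme B, was at 28.7 to 90.2 CPM in 1x20Gy (median 48.5 CPM), against 59.9, 50.8, 17.5 and 26.9 CPM in 1x0Gy (log2 0.40, SE 0.36, adjusted p = 0.554). Ifng, the cytokine interferon gamma, was at 8.87 to 32.6 CPM in 1x20Gy (median 11.2 CPM), against 11.4, 16.6, 4.09 and 5.73 CPM in 1x0Gy (log2 0.64, SE 0.41, adjusted p = 0.380). Of 14 NK cell markers edgeR called 0 (median 0.34), with 3 at an unadjusted p below 0.05, against 1 call by DESeq2 and 2 by limma voom. They include the NK receptor Ncr1 at 1.604 to 6.09 CPM in 1x20Gy and 1.61 to 3.52 CPM in 1x0Gy (adjusted p = 0.628). Of 13 exhaustion and activation genes, Icos rose and Lag3 fell. Lag3, an inhibitory receptor for MHC class II, was low in both groups, at 0.26 to 1.97 CPM in 1x20Gy (median 1.10 CPM), against 6.51, 7.03, 4.26 and 4.12 CPM in 1x0Gy (log2 -2.32, SE 0.41, adjusted p = 0.00117), and its groups did not overlap. Of 5 B cell markers edgeR called 0, with 1 lower at an unadjusted p below 0.05 that DESeq2 and limma voom called. Of 11 plasma cell genes it called 0, with 1 higher and 1 lower at that level, 1 call by DESeq2 and 0 by limma voom. Over all tested genes edgeR called 3.67% higher and 4.88% lower. The counts of these 5 lists are near those shares at their sizes, and say little about the cells.

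**Figure D2:**
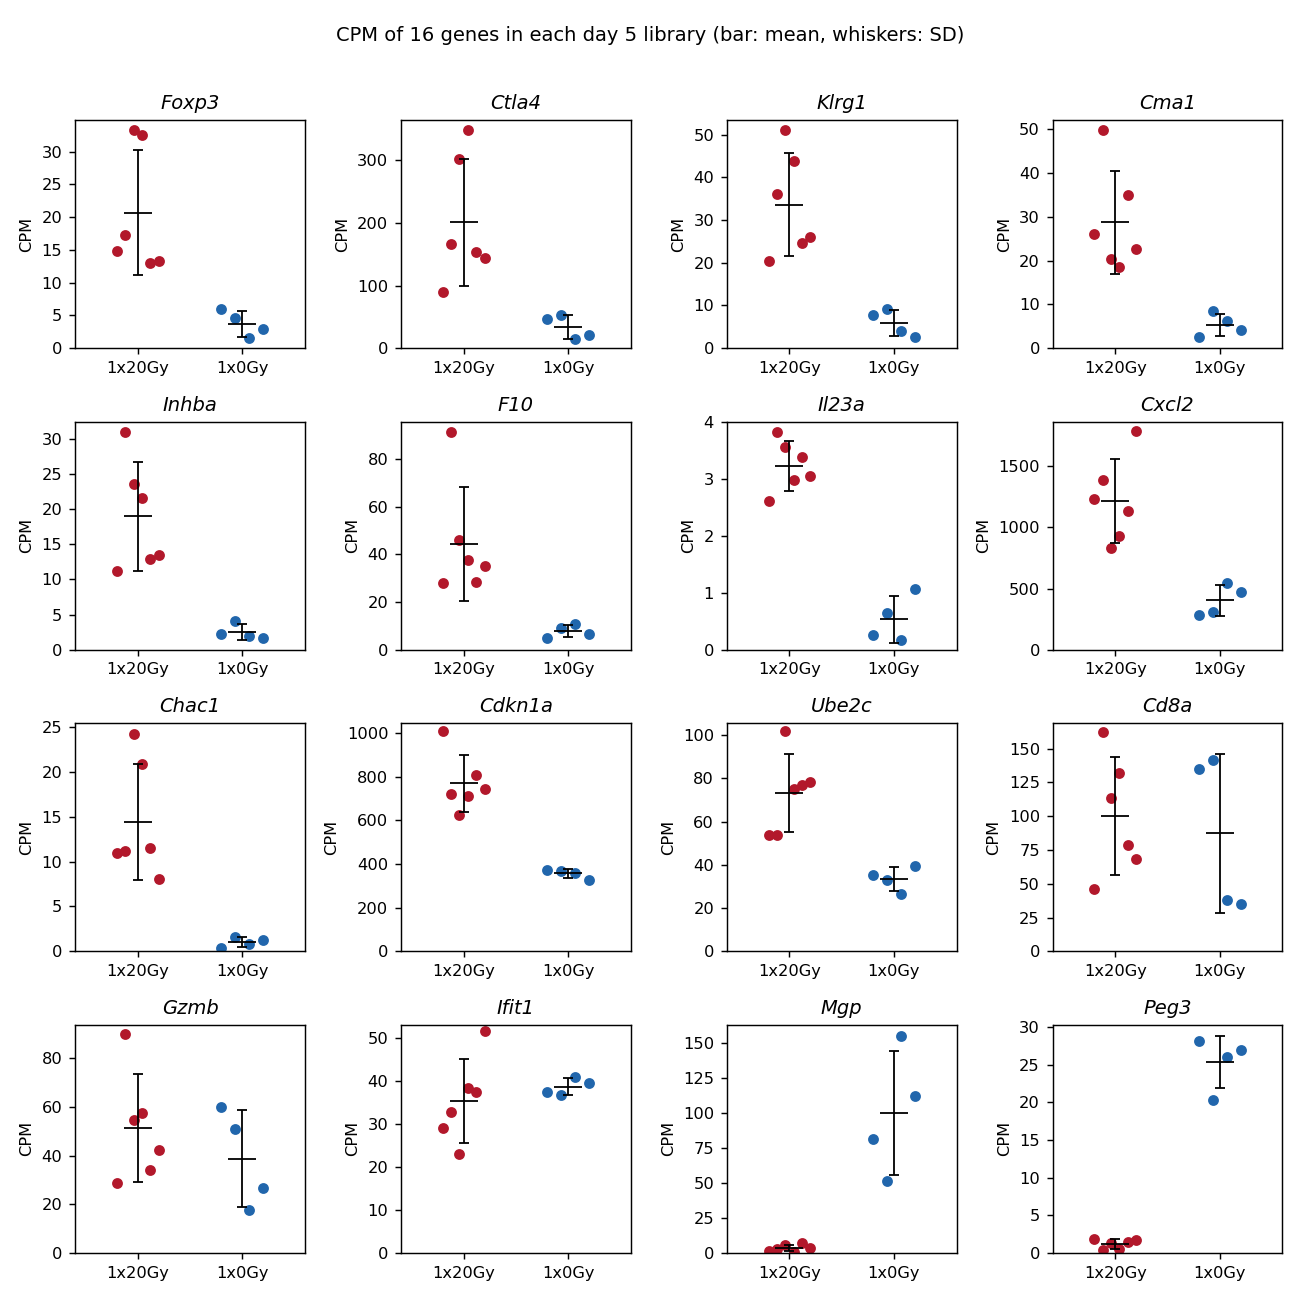
CPM (vertical axes, linear from 0) of 16 genes in the 6 1x20Gy (red) and 4 1x0Gy (blue) libraries of day 5. Horizontal bars are means and whiskers SD. Foxp3, Ctla4, Klrg1, Cma1, Inhba, F10, Il23a, Cxcl2, Chac1, Cdkn1a and Ube2c lie higher without overlap in 1x20Gy, Mgp and Peg3 lower without overlap, and Cd8a, Gzmb and Ifit1 overlap.

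Mast cell, basophil and eosinophil genes were higher in 1x20Gy. Of 11 tested members, 6 rose and 0 fell, with a median of 1.93, and their summed level was 157 to 273 CPM in 1x20Gy and 53.7 to 83.6 CPM in 1x0Gy, without overlap. The count was 3 without 1x0Gy library 1 or 4, and 0 with the epithelial and fibroblast score. The list's median was 0.16 for 3x4Gy, a fractionated schedule, over its own mock 3x0Gy, and -1.43 for 1x0Gy over 3x0Gy. Between these mocks Cma1 was at -1.80, Mcpt4 at -1.79 and Gata2 at -1.43, none of them called (each adjusted p = 0.836). Cma1, the mast cell protease chymase, was at 18.6 to 49.8 CPM in 1x20Gy (median 24.4 CPM), against 2.55, 8.47, 6.22 and 4.12 CPM in 1x0Gy. The lowest 1x20Gy library exceeded the highest 1x0Gy library, and the fold change was 5.42 (log2 2.44, SE 0.51, adjusted p = 0.0042). Mcpt4, another chymase of connective tissue mast cells, was at 4.80 to 10.3 CPM in 1x20Gy (median 6.92 CPM), against 1.28, 1.76, 0.66 and 0.54 CPM in 1x0Gy (log2 2.75, SE 0.52, adjusted p = 0.00173). Hdc makes histamine and is also in the neutrophil list. It was at 46.3 to 113 CPM in 1x20Gy (median 56.1 CPM), against 13.0, 16.1, 21.9 and 8.24 CPM in 1x0Gy (log2 2.12, SE 0.33, adjusted p = 0.000306). Gata2, a transcription factor of mast cells and basophils, was at 2.75 to 7.05 CPM in 1x20Gy and 0.51 to 1.97 CPM in 1x0Gy (log2 1.93, adjusted p = 0.0146; 0.0581 and 0.0509 without 1x0Gy library 1 and 4). Cma1 is on chromosome 14 (55941451 to 55944675, minus strand) and Hdc on chromosome 2 (126593667 to 126619299, minus strand).

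Neutrophil genes spread widely between libraries. Of 13 tested members, 5 rose (Il1f9, Mmp9, Cxcr2, Hdc and Trem1) and Lcn2 fell, with a median of 2.23. The summed level was 134 to 848 CPM in 1x20Gy, with library 2 the highest, and 108 to 234 CPM in 1x0Gy. The list's median was 0.62 for 3x4Gy over 3x0Gy and -0.64 for 1x0Gy over 3x0Gy. The count of higher members was 3 without 1x0Gy library 1, 2 or 4, 4 without 1x20Gy library 2, and 2 with limma voom. Il1f9, the cytokine interleukin-36 gamma, was at 68.1 CPM in 1x20Gy library 2 and at 1.57 to 5.46 CPM in the other 5, against 0.26, 0.48, 0.33 and 0 CPM in 1x0Gy. Its groups did not overlap even without that library, and its log2 fold change was 5.61 (SE 1.28, adjusted p = 0.00811) with library 2 and 3.52 without it. Trem1, an activating receptor of neutrophils and monocytes, was the most even member, at 43.2 to 74.0 CPM in 1x20Gy (median 47.0 CPM), against 19.3, 28.4, 28.0 and 20.1 CPM in 1x0Gy (log2 1.11, SE 0.26, adjusted p = 0.00972). Cxcr2, the receptor for Cxcl1 and Cxcl2, was at 0.56 to 4.80 CPM in 1x20Gy and 0.32 to 0.64 CPM in 1x0Gy (log2 2.53, SE 0.72, adjusted p = 0.0298), a call lost without 1x20Gy library 5 or 6 or any 1 of the 1x0Gy libraries (adjusted p between 0.0569 and 0.0954). Mmp9, the matrix protease gelatinase B, rose by 2.71 (SE 0.77, adjusted p = 0.0294) with overlap between groups, and lost its call without 1x20Gy library 2 (2.12, adjusted p = 0.0865) or 1x0Gy library 1, 2 or 4 (adjusted p = 0.0929, 0.0644 and 0.0881). S100a8, a calcium-binding protein abundant in neutrophils, was at 13.3 to 321 CPM in 1x20Gy (median 67.4 CPM), against 9.57, 6.87, 43.2 and 20.6 CPM in 1x0Gy, and was not called (log2 2.36, SE 0.93, adjusted p = 0.125; 1.54 without library 2).

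Among 22 tested chemokine ligands 4 rose and 0 fell (median 0.17), and 3 of the 4 were the neighbouring Cxcr2 ligands Cxcl1, Cxcl2 and Cxcl3. The count was 2 without 1x0Gy library 1, 3 or 4. Their promoters are printed because all 3 hold the NF-kB motif searched, and no other of the 15 chemokine ligand genes with a promoter in the table did. The 10 letters in capitals below, without mismatch, are in 29 of the 32851 promoters of the table (0.0883%), in 15 of the 11236 promoters of tested genes (0.133%) and in 3 of the 434 promoters of genes called higher (0.691%), which are these 3. Both strands were searched. The sequences run from 250 bases before to 50 bases after the annotated start (RefSeq, GRCm38.p6, plus strand), with the motif in capitals, and are chr5:90890995-90891294 for Cxcl1, chr5:90903649-90903948 for Cxcl2 and chr5:90785851-90786150 for Cxcl3.
Cxcl1 promoter: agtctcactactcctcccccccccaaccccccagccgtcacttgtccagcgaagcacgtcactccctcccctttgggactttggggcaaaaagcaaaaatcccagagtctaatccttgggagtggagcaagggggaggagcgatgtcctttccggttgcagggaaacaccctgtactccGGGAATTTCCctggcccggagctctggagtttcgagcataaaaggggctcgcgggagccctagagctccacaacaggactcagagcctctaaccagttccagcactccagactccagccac
Cxcl2 promoter: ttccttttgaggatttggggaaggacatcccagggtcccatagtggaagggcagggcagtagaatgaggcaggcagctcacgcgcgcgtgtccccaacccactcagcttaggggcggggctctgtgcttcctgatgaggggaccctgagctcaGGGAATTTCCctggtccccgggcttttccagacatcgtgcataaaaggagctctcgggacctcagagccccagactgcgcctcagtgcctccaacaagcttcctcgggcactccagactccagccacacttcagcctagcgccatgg
Cxcl3 promoter: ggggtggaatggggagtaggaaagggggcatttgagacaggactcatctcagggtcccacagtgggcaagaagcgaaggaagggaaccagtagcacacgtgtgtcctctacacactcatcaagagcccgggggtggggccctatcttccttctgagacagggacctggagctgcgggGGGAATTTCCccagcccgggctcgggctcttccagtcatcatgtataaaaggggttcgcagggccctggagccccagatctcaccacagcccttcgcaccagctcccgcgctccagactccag
The motif begins 71 bases before the start in Cxcl1, 97 in Cxcl2 and 73 in Cxcl3. A match is a description of these letters and not evidence of a bound site.

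Cxcl2, one of the most abundant chemokines here, was at 829.4 to 1790 CPM in 1x20Gy (median 1183 CPM), against 286, 311, 547 and 474 CPM in 1x0Gy. All 6 irradiated libraries were above all 4 mocks, at a fold change of 3.01 (log2 1.59, SE 0.37, adjusted p = 0.00881). Cxcl1 was at 67.4 to 138 CPM in 1x20Gy (median 115 CPM), against 24.4, 28.4, 54.4 and 43.3 CPM in 1x0Gy (log2 1.55, SE 0.39, adjusted p = 0.0141; 0.055 without 1x0Gy library 1). Cxcl3 was rare, at 1.06 to 7.83 CPM in 1x20Gy and 0 to 0.64 CPM in 1x0Gy (log2 3.50, SE 0.87, adjusted p = 0.0133), with 4.58 without 1x0Gy library 1 and a lost call without library 3 or 4 (adjusted p = 0.0515 and 0.0543). Ccl17, a ligand of the T cell receptor Ccr4 made by dendritic cells, rose by 1.46 (SE 0.46, adjusted p = 0.0493) and lost that call without 1x20Gy library 2, 3, 4 or 5 or any 1 of the 1x0Gy libraries (adjusted p between 0.0554 and 0.151). Cxcl10, the interferon-induced ligand of Cxcr3, was at 135 to 229 CPM in 1x20Gy and 143 to 214 CPM in 1x0Gy and was not called (log2 -0.04, adjusted p = 0.954). The monocyte receptor Ccr2 was at 141 to 243 CPM in 1x20Gy (median 166 CPM), against 117, 105, 97.3 and 73.2 CPM in 1x0Gy (log2 0.88, SE 0.24, adjusted p = 0.0266), a call lost without 1x20Gy library 4 or 5 or 1x0Gy library 3 or 4 (adjusted p between 0.0674 and 0.121).

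Of 19 inflammatory cytokine and mediator genes, 7 rose and 0 fell, with a median of 0.59, and 6 or 7 were called in each of the 10 fits that leave out 1 library. Inhba, the subunit that forms activin A, was at 11.2 to 30.98 CPM in 1x20Gy (median 17.5 CPM), against 2.17, 4.15, 1.97 and 1.61 CPM in 1x0Gy. The groups lay far apart, at a fold change of 7.63 (log2 2.93, SE 0.45, adjusted p = 0.000285; chromosome 13, 16011851 to 16031621, plus strand). Il23a, the p19 chain of interleukin-23, was rare but even, at 2.61 to 3.83 CPM in 1x20Gy (median 3.23 CPM), against 0.26, 0.64, 0.16 and 1.07 CPM in 1x0Gy (log2 2.61, SE 0.43, adjusted p = 0.000571). Il1rn, the secreted antagonist of the interleukin-1 receptor, was at 686 to 795 CPM in 1x20Gy (median 762 CPM), against 362, 332, 314 and 295 CPM in 1x0Gy (log2 1.21, SE 0.27, adjusted p = 0.00661). Its decoy receptor Il1r2 was at 324 to 386 CPM in 1x20Gy (median 344 CPM), against 173, 204, 234 and 148 CPM in 1x0Gy (log2 0.89, SE 0.18, adjusted p = 0.00329). Both antagonists of interleukin-1 thus lay higher without overlap, while Il1b itself was at 2561 to 3961 CPM in 1x20Gy and 2388 to 3161 CPM in 1x0Gy and was not called (log2 0.24). Ptgs2, the prostaglandin-forming enzyme cyclooxygenase 2, was at 36.4 to 81.7 CPM in 1x20Gy (median 64.6 CPM), against 29.1, 22.5, 15.9 and 26.3 CPM in 1x0Gy (log2 1.39, SE 0.31, adjusted p = 0.00667).

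The activin and TGF-beta list moved in both directions, with 3 of 26 tested members higher and 5 lower (median -0.16), and 3 lower without 1x0Gy library 3 or 4. Besides Inhba, Thbs1, the thrombospondin that activates latent TGF-beta, rose, at 137 to 270 CPM in 1x20Gy (median 171 CPM), against 107, 86.0, 104 and 63.2 CPM in 1x0Gy (log2 1.04, SE 0.20, adjusted p = 0.00228). Tgfb1, the main TGF-beta of immune cells, was at 30.8 to 42.5 CPM in 1x20Gy (median 34.9 CPM), against 73.1, 75.1, 64.0 and 69.5 CPM in 1x0Gy. These groups were tight and apart (log2 -0.96, SE 0.18, adjusted p = 0.00174). Inhbb, the other activin subunit, was low in both groups, at 0.23 to 0.94 CPM in 1x20Gy and 2.24 to 4.08 CPM in 1x0Gy (log2 -2.65, SE 0.51, adjusted p = 0.00211).

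Coagulation genes also split, with 3 of 15 higher and 3 lower (median 0.30). Without 1x0Gy library 1 the count of higher members was 1, and that of lower members was 1 without 1x20Gy library 2 or 4 or 1x0Gy library 2 or 3 and 0 without 1x0Gy library 4. F10, coagulation factor X, was at 27.9 to 91.4 CPM in 1x20Gy (median 36.5 CPM), against 4.98, 9.11, 10.8 and 6.45 CPM in 1x0Gy. Library 2 was the highest of the 1x20Gy libraries, and all 6 were above all mocks (fold change 5.72, log2 2.51, SE 0.39, adjusted p = 0.000368; chromosome 8, 13037308 to 13056676, plus strand). Procr, the endothelial receptor of protein C, was at 119 to 176 CPM in 1x20Gy (median 136 CPM), against 51.7, 80.1, 81.2 and 75.9 CPM in 1x0Gy (log2 0.97, SE 0.25, adjusted p = 0.0167; 0.0672 without 1x0Gy library 1). F7, factor VII, rose by 1.95 (adjusted p = 0.0359) and by 1.29 without 1x20Gy library 2 (adjusted p = 0.116), and also lost its call without 1x0Gy library 1, 2 or 4 (adjusted p = 0.114, 0.0979 and 0.0837). Plau, the urokinase-type plasminogen activator, was at 32.7 to 96.1 CPM in 1x20Gy (median 56.9 CPM), against 149, 115, 131 and 210 CPM in 1x0Gy (log2 -1.29, SE 0.33, adjusted p = 0.0145; 0.079 without 1x0Gy library 4).

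Both conventional dendritic cell lists and the mature dendritic cell list held 3 or 4 higher members each, beside 3.67% of all genes called higher. With the epithelial and fibroblast score each list had 0 higher calls. The type 1 sums were 1387 to 2017 CPM in 1x20Gy and 1294 to 1663 CPM in 1x0Gy, with overlap. Those of type 2 were 1288 to 1893 and 1381 to 1921 CPM, also with overlap. Those of the mature list were 1453 to 1784 and 1026 to 1451 CPM, without overlap. Naaa, a lysosomal lipid amidase enriched in type 1 conventional dendritic cells, was at 159 to 268 CPM in 1x20Gy (median 248 CPM), against 109, 108, 102 and 107 CPM in 1x0Gy (log2 1.12, SE 0.20, adjusted p = 0.00124). Zbtb46, a transcription factor of conventional dendritic cells, was at 31.3 to 54.8 CPM in 1x20Gy (median 39.8 CPM), against 21.4, 26.0, 15.2 and 15.8 CPM in 1x0Gy (log2 1.03, SE 0.20, adjusted p = 0.00231). Both had groups without overlap, and with Wdfy4 (0.99, adjusted p = 0.0186; 0.0501 to 0.0691 without 1x20Gy library 3 or 1x0Gy library 2 or 4) they were the 3 called of 12 type 1 markers (median 0.30). The 3 higher of 10 type 2 markers were the lectins Mgl2 (1.24) and Clec10a (0.98) and the factor Irf4 (0.88), with adjusted p = 0.0201, 0.0155 and 0.0195, and the count was 2 without 1x20Gy library 2 or 3 or 1x0Gy library 1, 2 or 3, and 0 without 1x0Gy library 4. Epcam, in that list and in the epithelial one, fell. Of 16 mature dendritic cell genes 4 rose (median 0.46), with 2 without 1x20Gy library 3 or 1x0Gy library 1 and 1 without 1x0Gy library 3 or 4. Traf1, a signalling adaptor of TNF receptors, was the firmest, at 114 to 159 CPM in 1x20Gy (median 134 CPM), against 61.1, 78.1, 49.9 and 47.3 CPM in 1x0Gy (log2 1.19, SE 0.20, adjusted p = 0.000713).

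Of 18 macrophage identity genes 1 was called (Maf, higher), beside 8.55% of all genes called, and the list's median was -0.21. Maf, a macrophage and T cell transcription factor, was at 189 to 333 CPM in 1x20Gy (median 216 CPM), against 142, 117, 115 and 112 CPM in 1x0Gy (log2 0.92, SE 0.23, adjusted p = 0.0122; 0.0514 without 1x0Gy library 4). Csf1r, the receptor for macrophage colony-stimulating factor, was at 449 to 721 CPM in 1x20Gy and 532 to 872 CPM in 1x0Gy (log2 -0.22, adjusted p = 0.625). Emr1, an older symbol of Adgre1 (F4/80), was at 64.6 to 161 CPM in 1x20Gy and 126 to 208 CPM in 1x0Gy (log2 -0.62, SE 0.31, adjusted p = 0.228). Among 15 lipid and phagocytosis genes of macrophages, 4 fell and 0 rose (median -0.31). Ctsd, the lysosomal protease cathepsin D, was at 453 to 903 CPM in 1x20Gy (median 833 CPM), against 1507, 1188, 2559 and 2473 CPM in 1x0Gy (log2 -1.30, SE 0.24, adjusted p = 0.00152). The other 3 were the lipid receptor Trem2 (-1.495, adjusted p = 0.0186; 0.0862 and 0.0817 without 1x0Gy library 3 and 4), the lysosomal glycoprotein Gpnmb (-1.44, adjusted p = 0.0258) and the lipid droplet protein Plin2 (-0.71, adjusted p = 0.0256). Without 1x0Gy library 3 or 4 the list had 1 call, and without 1x20Gy library 2 or 4 it had 2. Arg1, an enzyme of suppressive myeloid cells, was at 64.4 CPM in 1x20Gy library 2 and 1.09 to 5.07 CPM in the other 5, against 4.47 to 5.89 CPM in 1x0Gy. It was not called (log2 1.43, SE 0.91, adjusted p = 0.373), and its value was -0.67 without library 2. Arg2, the mitochondrial arginase, was at 14.0 to 47.0 CPM in 1x20Gy (median 16.5 CPM), against 4.34, 10.2, 9.496 and 7.88 CPM in 1x0Gy (log2 1.41, SE 0.34, adjusted p = 0.0102).

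Interferon and antigen presentation genes showed few calls. Of 28 tested type I interferon response genes 0 rose and 2 fell (median -0.07), beside 3.67% of all genes called higher and 4.88% called lower. Bst2 (tetherin), which is also in the plasmacytoid dendritic cell list, was at 83.0 to 143 CPM in 1x20Gy (median 125 CPM), against 284, 217, 190 and 280 CPM in 1x0Gy. Its groups did not overlap (fold change 2.02 lower, log2 -1.01, SE 0.20, adjusted p = 0.00273; chromosome 8, 71534255 to 71537456, minus strand). Oas2, a sensor-linked synthetase, fell by 0.54 (adjusted p = 0.0157; 0.0562 and 0.0781 without 1x0Gy library 1 and 3). Ifit1 was at 23.1 to 51.8 CPM in 1x20Gy and 36.8 to 41.1 CPM in 1x0Gy and was not called (log2 -0.13, adjusted p = 0.757). Of 20 interferon gamma response genes 1 fell, the GTPase Iigp1, at 108 to 160 CPM in 1x20Gy (median 142 CPM), against 225, 281, 229 and 287 CPM in 1x0Gy (log2 -0.90, SE 0.22, adjusted p = 0.0106). The checkpoint ligand Cd274 (PD-L1) was at 56.6 to 105 CPM in 1x20Gy and 22.6 to 64.7 CPM in 1x0Gy and was not called (log2 0.68, SE 0.30, adjusted p = 0.166). Icosl, the ligand of Icos, was at 27.9 to 43.8 CPM in 1x20Gy (median 32.7 CPM), against 63.8, 54.5, 56.2 and 63.0 CPM in 1x0Gy (log2 -0.77, SE 0.16, adjusted p = 0.00327). Of 18 MHC class I genes H2-T23 was called higher (0.98, adjusted p = 0.0377), a call lost without 1x20Gy library 1, 4, 5 or 6 or 1x0Gy library 1, 3 or 4 (adjusted p between 0.0676 and 0.138). Of 11 MHC class II genes H2-DMb2 was called higher (0.60, adjusted p = 0.0245), a call lost without 1x20Gy library 3, 5 or 6 or 1x0Gy library 1, 3 or 4 (adjusted p between 0.0523 and 0.0877). Both lists had medians near that of all genes (0.00 and -0.05).

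Of 26 tested p53 targets 7 rose and 0 fell, beside 3.67% of all genes called higher, with a median of 0.33. The count of higher members was 4 without 1x20Gy library 2 or 5 or 1x0Gy library 3 or 4, and 5 without any other library. Cdkn1a, which encodes the cell cycle inhibitor p21 and is switched on by p53, was at 624 to 1011 CPM in 1x20Gy (median 731 CPM), against 374, 369, 358 and 326 CPM in 1x0Gy. Every irradiated library lay well above the highest mock value, and the mocks were close together (fold change 2.16, log2 1.11, SE 0.19, adjusted p = 0.000802; chromosome 17, 29090976 to 29100727, plus strand). Aen, an apoptosis-enhancing nuclease, was at 32.1 to 50.7 CPM in 1x20Gy (median 37.96 CPM), against 23.4, 27.8, 22.6 and 21.3 CPM in 1x0Gy (log2 0.75, SE 0.17, adjusted p = 0.00801). Phlda3, an Akt repressor, rose by 1.31 (adjusted p = 0.0192; between 0.0597 and 0.0782 without 1x20Gy library 5 or 1x0Gy library 1 or 2). Ddit4, an mTOR inhibitor induced by p53 and by the stress factor ATF4, was at 107 to 220 CPM in 1x20Gy (median 160 CPM), against 50.7, 58.0, 64.5 and 53 CPM in 1x0Gy (log2 1.53, SE 0.22, adjusted p = 0.000176). Of 22 DNA repair genes 1 was called, Rad54l (0.97, adjusted p = 0.0266), beside 3.67% of all genes called higher, and it lost its call in 5 fits that leave out 1 library (1x20Gy 3 or 4, 1x0Gy 1, 3 or 4; adjusted p between 0.0634 and 0.0931), while edgeR, DESeq2 and limma voom called 0 of 15 BCL2 family genes, 3 of which had an unadjusted p below 0.05.

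Integrated stress response genes had 5 of 22 higher and 1 lower (Atf5), with a median of 0.46. The count of lower members was 2 without 1x20Gy library 3 and 0 in the other 9 fits that leave out 1 library. Chac1, an enzyme that breaks down glutathione and a target of ATF4, was at 8.08 to 24.2 CPM in 1x20Gy (median 11.3 CPM), against 0.38, 1.598, 0.82 and 1.25 CPM in 1x0Gy. The lowest 1x20Gy library had more than the sum of the mocks, and the fold change of 14.4 (log2 3.85, SE 0.43, adjusted p = 9.78e-06) had the smallest adjusted p of the named increases. Slc7a11, the cystine importer that feeds glutathione synthesis, was at 111 to 316 CPM in 1x20Gy (median 135 CPM), against 57.9, 55.6, 80.1 and 65.0 CPM in 1x0Gy (log2 1.34, SE 0.30, adjusted p = 0.00644). Mthfd2, a mitochondrial folate enzyme, was at 97.6 to 164 CPM in 1x20Gy (median 122 CPM), against 73.9, 94.0, 74.7 and 75.2 CPM in 1x0Gy (log2 0.66, SE 0.14, adjusted p = 0.00436). The list's transcription factors Atf4 (0.26) and Ddit3 (-0.20) were not called. The promoters of Chac1 and Cdkn1a are shown because each holds the element of its pathway in capitals: for Chac1 the C/EBP-ATF response element, searched as TGATGNAA on both strands and found on the reverse strand 193 bases before the start, and for Cdkn1a the p53 consensus without spacer, allowing 1 mismatch, 51 bases before one of its annotated starts. They are RefSeq sequences on GRCm38.p6, plus strand, at chr2:119350992-119351291 and chr17:29090729-29091028.
Chac1 promoter: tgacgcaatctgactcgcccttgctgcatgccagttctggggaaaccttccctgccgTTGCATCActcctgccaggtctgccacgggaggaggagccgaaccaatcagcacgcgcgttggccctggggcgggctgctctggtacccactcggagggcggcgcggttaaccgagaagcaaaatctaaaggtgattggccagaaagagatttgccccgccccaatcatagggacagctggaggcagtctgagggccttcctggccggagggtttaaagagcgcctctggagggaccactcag
Cdkn1a promoter: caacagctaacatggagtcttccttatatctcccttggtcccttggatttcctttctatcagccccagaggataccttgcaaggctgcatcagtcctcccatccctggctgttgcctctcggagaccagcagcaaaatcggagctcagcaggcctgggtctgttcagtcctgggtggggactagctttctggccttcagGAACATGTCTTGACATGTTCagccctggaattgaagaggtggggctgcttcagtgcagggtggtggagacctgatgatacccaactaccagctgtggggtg
The C/EBP-ATF letters are in 1304 of 32851 promoters (3.97%), in 2.38% of those of tested genes and in 9 of 434 of those of genes called higher (2.07%). Counted by gene and not by promoter, 7 of the 20 tested integrated stress response genes with a promoter in the table (24 promoters) had a match. They were Asns, Atf3, Chac1, Nupr1, Slc7a11, Trib3 and Vldlr. Of these 7, Chac1 and Slc7a11 rose and the others were not called. The p53 consensus is in 29 of 32851 promoters (0.0883%) and in 2 of 434 of genes called higher (0.461%). Counted by gene, 2 of the 19 tested p53 targets with a promoter in the table (26 promoters) had a match (Ccng1 and Cdkn1a). The other annotated start of Cdkn1a has no match, which says only that these letters are not in that window.

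Of 30 tested cell cycle genes, 8 rose in 1x20Gy and 0 fell, 29 had positive values, and the median was 0.53. Their summed level was 1862 to 2830 CPM in 1x20Gy and 1448 to 1693 CPM in 1x0Gy, without overlap, and 6 to 10 were called with 1 library left out. Ube2c, the ubiquitin-conjugating enzyme of mitotic exit, was at 53.8 to 102 CPM in 1x20Gy (median 75.9 CPM), against 35.1, 32.8, 26.5 and 39.4 CPM in 1x0Gy (log2 1.13, SE 0.19, adjusted p = 0.000799). Plk1, a mitotic kinase, was at 59.8 to 89.0 CPM in 1x20Gy (median 71.8 CPM), against 24.4, 33.1, 44.0 and 38.9 CPM in 1x0Gy (log2 1.04, SE 0.19, adjusted p = 0.00155). Birc5 (survivin), of the chromosomal passenger complex, was at 188 to 355 CPM in 1x20Gy (median 222 CPM), against 115, 145, 116 and 141 CPM in 1x0Gy (log2 0.88, SE 0.17, adjusted p = 0.00263). All 3 had groups without overlap and kept their calls with the epithelial and fibroblast score. Mki67, the common proliferation marker, was at 146 to 238 CPM in 1x20Gy (median 180 CPM), against 154, 130, 109 and 113 CPM in 1x0Gy, and was not called (log2 0.59, SE 0.22, adjusted p = 0.107). Cdkn1a, which halts the cycle, and these mitotic genes were thus higher in the same libraries, and bulk RNA does not say whether in the same cells.

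**Figure D3:**
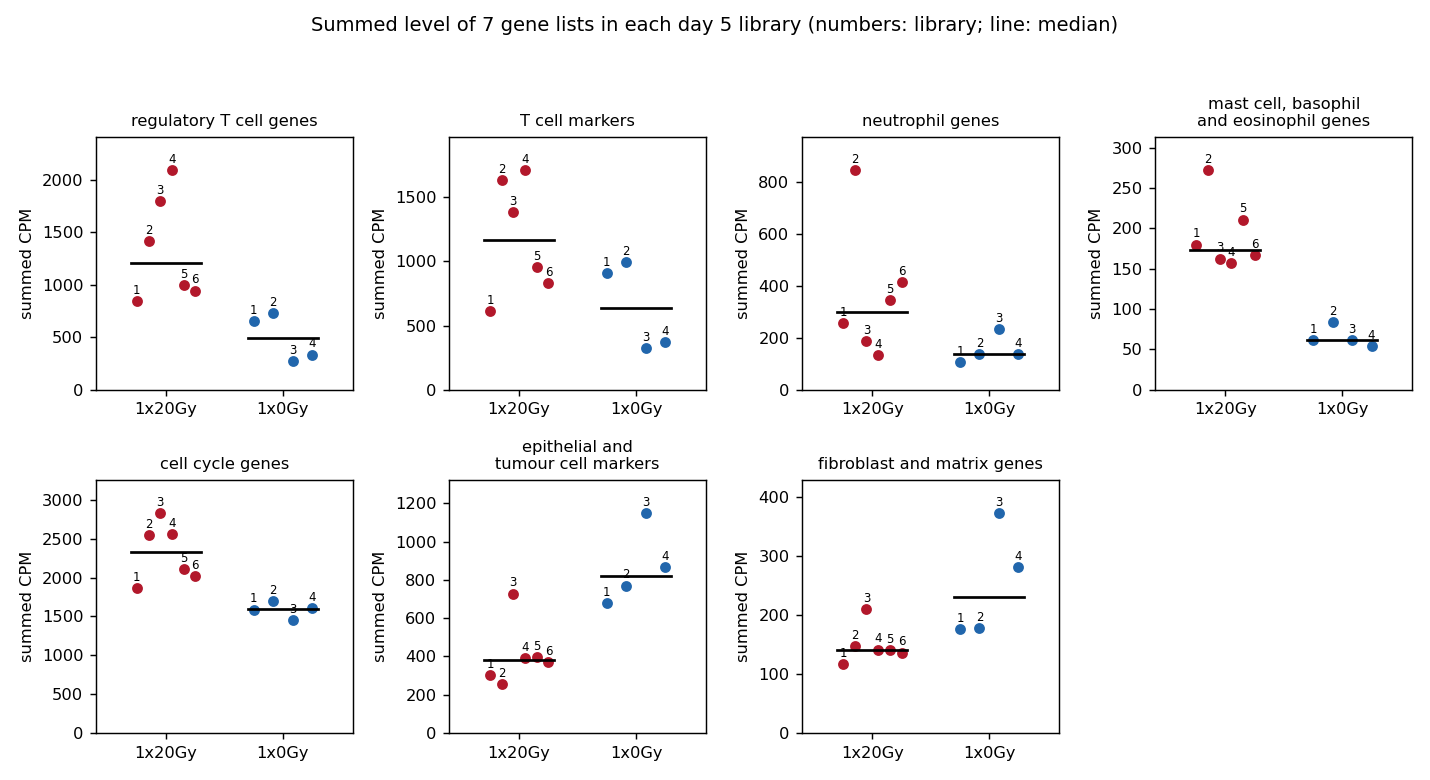
Summed CPM (vertical axes, linear from 0) of the tested members of 7 gene lists in each day 5 library, 1x20Gy (red) and 1x0Gy (blue), with library numbers and a line at the group median. Regulatory T cell, mast cell and cell cycle sums do not overlap between groups, T cell, neutrophil, epithelial and fibroblast sums do, and 1x20Gy library 2 has the highest neutrophil sum (848 CPM).

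Among called genes averaging 5 CPM or more with an ordinary symbol, Wif1, Mgp and Peg3 had the largest decreases. Wif1, a secreted Wnt inhibitor, was at 0 to 1.502 CPM in 1x20Gy (median 0.30 CPM), against 13.5, 7.19, 23.1 and 23.3 CPM in 1x0Gy (log2 -5.03, SE 0.55, adjusted p = 8.85e-06; -5.93 without 1x20Gy library 3). Mgp, matrix Gla protein, was at 0.92 to 7.22 CPM in 1x20Gy (median 3.16 CPM), against 81.4, 51.6, 155 and 112 CPM in 1x0Gy, a 27.3-fold lower level (log2 -4.77, SE 0.46, adjusted p = 1.73e-06). Peg3, an imprinted zinc finger gene, was at 0.35 to 1.83 CPM in 1x20Gy (median 1.40 CPM), against 28.2, 20.3, 26.0 and 27.0 CPM in 1x0Gy (log2 -4.42, SE 0.41, adjusted p = 1.4e-06). These 3 were far below every mock in each irradiated library. The other 9 of the 12 largest decreases among those genes were Smoc1 (-4.24; -4.98 without 1x20Gy library 2) and Col16a1 (-3.97) of the matrix, the regulators Sertad4 (-3.96), Foxc1 (-3.70) and Irx3 (-3.43), Pdzrn3 (-3.42), the gap junction gene Gja1 (-3.36), the immunoglobulin transporter Pigr (-3.28) and Mpzl1 (-3.08), with adjusted p from 1.4e-06 to 0.000418. All 9 had groups without overlap.

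Of 21 tested epithelial and tumour cell markers, 10 fell and 1 rose (median -1.67). Epcam, an epithelial adhesion molecule also found on some dendritic cells, was at 11.5 to 37.5 CPM in 1x20Gy (median 23.5 CPM), against 83.0, 61.4, 104 and 89.5 CPM in 1x0Gy (log2 -1.80, SE 0.39, adjusted p = 0.00504). The basal keratins Krt14 (-3.03, adjusted p = 0.000412) and Krt17 (-2.58, adjusted p = 0.000267) fell without overlap. The member that rose was Areg, named here after its values were seen, a growth factor also made by immune cells (log2 1.14, adjusted p = 0.0387). The count of higher members was 1 without 1x20Gy library 5 or 1x0Gy library 2 and 0 without any other. Of 15 fibroblast and matrix genes, 5 fell and 0 rose (median -1.22), with 3 without 1x0Gy library 4 and 8 without 1x20Gy library 3. Postn (-3.04, adjusted p = 0.000128), Timp3 (-2.46, adjusted p = 0.000315) and Sparc (-2.08, adjusted p = 0.00273) led, and Col1a1 was at 2.09 to 15.4 CPM in 1x20Gy and 8.42 to 44.9 CPM in 1x0Gy without a call (log2 -1.43, SE 0.49, adjusted p = 0.071). Of 9 endothelial markers 1 was higher (Kdr, 0.67, adjusted p = 0.0292; between 0.0717 and 0.111 without 1x20Gy library 4, 5 or 6 or 1x0Gy library 1, 3 or 4) and 0 lower (median 0.67). Both tested erythroid genes fell, where Hba-a2 fell by 1.83 on the log2 scale and Hba-a1 fell by 1.21 (adjusted p = 0.0481, lost in 7 of the 10 fits that leave out 1 library), but these are near-identical copies between which reads can be split. With the epithelial and fibroblast score as a covariate Mgp was still lower by a log2 value of -3.36, Peg3 by -3.29 and Wif1 by -3.04 (adjusted p = 0.00877, 0.00892 and 0.0331), Epcam and the keratins were not called, and Foxp3 was higher by 2.90 (adjusted p = 0.0257), Chac1 by 4.38 (adjusted p = 0.000271) and Inhba by 2.58 (adjusted p = 0.0361). Mgp, Wif1, Epcam and the keratins are themselves in the lists that make the score, so for them this fit is not an independent check. Peg3, Foxp3, Chac1 and Inhba are not in those lists, but the score does not overlap between the groups. For them too the fit cannot fully tell the dose from epithelial and fibroblast RNA.

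The remaining 2 of the 12 largest increases among called genes of at least 5 CPM were Podnl1, a leucine-rich matrix protein (log2 2.53, SE 0.46, adjusted p = 0.00138), and Cpm, the membrane enzyme carboxypeptidase M (2.47, SE 0.37, adjusted p = 0.000257). Podnl1 was at 5.02 to 14.4 CPM in 1x20Gy (median 11.7 CPM), against 2.93, 2.40, 0.82 and 0.72 CPM in 1x0Gy, and Cpm at 6.77 to 14.2 CPM (median 9.42 CPM), against 2.55, 2.40, 0.82 and 0.90 CPM. Both were higher in all 6 1x20Gy libraries than in any 1x0Gy library. Podnl1 averaged 1.72 CPM in 1x0Gy and 4.32 CPM in 3x0Gy (log2 -1.26 for 1x0Gy over 3x0Gy in edgeR, adjusted p = 0.836). The lists that follow had few calls, beside 3.67% of all genes called higher and 4.88% called lower. Of 21 immediate early and heat shock genes, Ier3 (0.86) and Hsph1 (0.58) rose and Egr1 (-0.91) and Hspa1b (-1.49) fell. Ier3 was not called without 1x0Gy library 1 or 4 (adjusted p = 0.0573 and 0.0548), nor Hsph1 without 1x20Gy library 2 to 6 or 1x0Gy library 1, 3 or 4 (between 0.0534 and 0.122). Egr1, an early growth response factor, was at 122 to 254 CPM in 1x20Gy (median 150 CPM), against 255, 328, 328 and 408 CPM in 1x0Gy (adjusted p = 0.0137; 0.0708 without 1x0Gy library 4). Of 21 hypoxia and glycolysis genes, 2 fell, Bnip3 (-1.27, adjusted p = 0.017; 0.104 without 1x0Gy library 3) and Egln3 (-1.06, adjusted p = 0.028; not called without 1x20Gy library 4, 5 or 6 or 1x0Gy library 3 or 4, adjusted p between 0.0508 and 0.142). Of 20 oxidative stress and iron genes, 2 rose, Slc7a11 and Gsr (0.70, adjusted p = 0.037; between 0.0536 and 0.113 without 1x20Gy library 2, 3, 5 or 6 or any 1 of the 1x0Gy libraries). Of 11 mitochondrially encoded genes 0 was called by edgeR, DESeq2 or limma voom, and 0 had an unadjusted p below 0.05.

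The responses were set beside those of a fractionated schedule and of a later day. The 3x4Gy libraries (6, given 4 Gy in each of 3 fractions) have a mock group of their own, 3x0Gy (4), and edgeR called 0 of 12021 genes for the difference between both responses, with 714 at an unadjusted p below 0.05, 1 call by DESeq2 and 0 by limma voom. In simulated data the test of that difference recovered 22% of 2-fold and 75% of 4-fold changes, so 0 calls do not show that both responses were alike. Between the mocks, 1x0Gy and 3x0Gy, edgeR called 0 as well, with 667 at an unadjusted p below 0.05, 2 calls by DESeq2 and 0 by limma voom. Values side by side were 2.44 for Foxp3 after 1x20Gy and 1.81 after 3x4Gy (difference 0.63, SE 0.63), 2.93 and 3.36 for Inhba (-0.43, SE 0.66), 1.11 and 1.44 for Cdkn1a (-0.33, SE 0.26), and 3.85 and 2.86 for Chac1 (0.99, SE 0.66). Further apart were Cma1, at 2.44 after 1x20Gy and 0.16 after 3x4Gy (difference 2.28, SE 0.68), Tgfb1, at -0.96 and -0.04 (-0.92, SE 0.26), and Bst2, at -1.01 and 0.10 (-1.11, SE 0.29), each with an adjusted p of 0.736. Cma1 averaged 20.5 CPM after 3x4Gy, and its mocks averaged 5.34 CPM in 1x0Gy and 18.7 CPM in 3x0Gy, so the mocks themselves lay apart (log2 -1.80 for 1x0Gy over 3x0Gy, adjusted p = 0.836). Between these mocks Klrg1 was at -0.91 and Mmp9 at -1.50 (each adjusted p = 0.836 in edgeR). Inhba was at 0.38 and F10 at 0.55 (adjusted p = 0.909 and 0.839).

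On day 13 after the same 1x20Gy dose, 7 irradiated and 4 mock libraries were available, and each day's response was taken against its own mock because the labels give each day an experiment code of its own, and day and experiment cannot be told apart. The day 5 response differed from the day 13 response for 51 of 12061 genes (0.423%; 26 higher and 25 lower on day 5), 7 of them named by rule. Day differences and day 13 values come from 1 fit over all 31 libraries, in which the day 5 value can differ slightly from that of the 20 libraries given above. In it Inhba had a log2 response of 2.91 on day 5 and 0.39 on day 13 (difference 2.52, SE 0.55), and F10 had 2.495 and -0.04 (2.54, SE 0.54), both with an adjusted p of 0.045. Cxcl2 had 1.57 and -0.30 (1.87, SE 0.44, adjusted p = 0.0451) and Bst2 had -1.04 and 0.37 (-1.40, SE 0.29, adjusted p = 0.045). The mitotic genes Ube2c (1.29), Plk1 (1.31) and Birc5 (1.03) completed the 7, with day 13 values of -0.18, -0.30 and -0.17. These calls were near the threshold: with 1 of 21 libraries left out, each stayed called in between 3 (Ube2c and Cxcl2) and 10 (Plk1) of the fits, while no direction changed, and the count of all genes ran from 1 to 110. Foxp3 had 0.71 on day 13 (difference 1.71, SE 0.58, adjusted p = 0.175) and Cdkn1a 0.17 (0.92, SE 0.25, adjusted p = 0.0906), and for neither was the difference called. Wif1 was at -5.03 on day 5 in the fit over 20 libraries and at -4.20 on day 13 in that over 31, Mgp at -4.77 and -3.47, and Peg3 at -4.42 and -2.06.

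**Figure D4:**
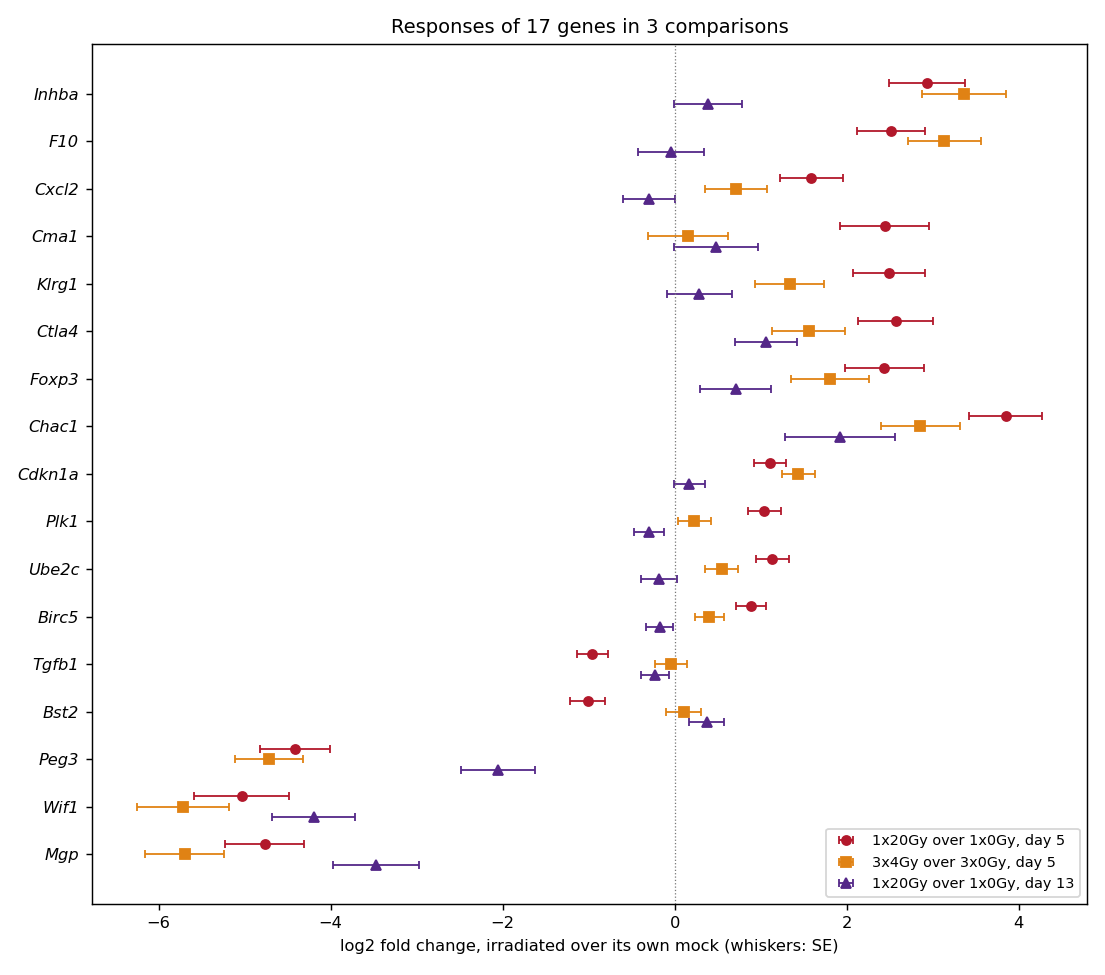
Log2 fold change of 17 genes (rows) with SE whiskers for 1x20Gy over 1x0Gy on day 5 (red circles), 3x4Gy over 3x0Gy on day 5 (orange squares) and 1x20Gy over 1x0Gy on day 13 (purple triangles), the day 13 values from a fit over 31 libraries and the others from one over 20. Inhba, F10 and Cxcl2 lie near 0 on day 13 (0.39, -0.04 and -0.30), while Wif1, Mgp and Peg3 lie below 0 in all 3 comparisons.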

How the data were processed

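Bulk RNA-seq libraries of sorted CD45.2+ cells were used, with 10 of 31 libraries in the comparison. The deposited values are raw read counts per gene. Per the submitters' processing notes, the tools were bcl2fastq 2.20.0.422, cutadapt 1.5, HISAT2 2.0.4 and HTSeq 0.9.1, with builds GRCm38 and mm10; the annotation and strand setting are not given in the sources used here. Summary lines that name no gene (17.6 to 28.8% of reads in 1x20Gy, 15.9 to 18.4% in 1x0Gy outside genes) were left out, and 0 other sample columns were present.

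From the counts, edgeR 4.0.16 (R 4.3.3) was fitted over the 20 day 5 libraries with TMM scaling, keeping genes that passed filterByExpr (minimum count 10, minimum total 15), and the quasi-likelihood test was two-sided with Benjamini-Hochberg adjustment. CPM are TMM-scaled. Differences between responses were interaction contrasts. Alternatives were DESeq2 1.42.0, limma voom 3.58.1, other scalings, filters and thresholds, a replicate block, 2 covariates and leaving out each library; the one without RP23-81C12.3 was chosen after seeing the data. Tested on simulated data with 200 changed genes among 12021, the comparison recovered 56% of 2-fold and 94% of 4-fold changes, with 3.23% false calls. For the difference from the 3x4Gy response these values were 22%, 75% and 6.73%. For the difference between day 5 and day 13, with 12061 genes, they were 27%, 85% and 8.94%. Simulated counts were drawn independently around a common mean profile, without group-linked epithelial RNA or deviating libraries. The rates may therefore not hold for these data.

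Named genes are the 12 largest called changes each way among genes averaging 5 CPM or more that carry an ordinary symbol, up to 4 called members per list by p-value, and a set of genes named whatever their values, 1 of which is not reported here. Members and lists were chosen with earlier results of these data known. Of 764 list entries 3 had no match and 11 matched by an older symbol, and 64 genes are in 2 or more lists. Gene positions are from GENCODE M21 on GRCm38. Same-numbered libraries of both groups did not deviate together in every pair, so numbers were not taken as pairs.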

Additional observations from a re-analysis of the deposited data

Results flagged for a closer look

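In groups of 4 or 6 libraries, a value was singled out when the highest or lowest library lay further from its nearest neighbour, relative to the group's range, than Dixon's 95% limit. For normal values chance gives about 5% of groups. The CPM were not log-transformed and the genes are not independent, so that share is not a test here. Of 250 groups 28 were singled out, 14 of them in 1x20Gy library 2. That library was the highest of its group for Il1f9 (68.1 CPM), F10 (91.4), Hdc (112.8), Trem1 (74.0), Arg2 (47.0), Mgl2 (144.8), Ccl17 (42.8), Slc7a11 (315.8), F7 (31.3), Bnip3 (35.3), Hsph1 (57.8), Ifng (32.6), Arg1 (64.4) and S100a8 (321.3 CPM). 1x20Gy library 3 was the highest for Wif1 (1.502 CPM), Birc5 (354.9 CPM) and Csn2 (0.19 CPM, the casein gene, at 0 in the other 5) and the lowest for Ptprc (612.4 CPM). 1x20Gy library 4 was the highest for Maf (333.4 CPM) and Cd4 (39.6 CPM) and the lowest for Ctsd (453.2 CPM).

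In 1x0Gy, library 1 was the highest for Maf (142.2 CPM) and total gene counts (7541144) and the lowest for Krt17 (6.38 CPM). Library 2 was the highest for Mthfd2 (94.0 CPM), library 3 for Col16a1 (29.1 CPM) and Egln3 (19.2 CPM), and library 4 for Hba-a2 (63.9 CPM).

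The response to 1x20Gy differed between day 5 and day 13, by edgeR's interaction test with an adjusted p below 0.05, for Inhba (log2 difference 2.52), F10 (2.54), Cxcl2 (1.87), Plk1 (1.31), Ube2c (1.29), Birc5 (1.03) and Bst2 (-1.40).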

How the results depend on the processing

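All called named genes kept their direction under the alternatives run. The 441 higher and 587 lower calls became 210 and 947 with library size only (18.2% of calls higher, against 42.9%; the median of all genes was then -0.11), 143 and 282 at an adjusted p below 0.01, and 54 and 30 with the epithelial and fibroblast score. Higher calls were 705 when the 10 libraries were fitted alone, and lower calls were 325 with a mean of at least 5 CPM. The split was 29.8% higher with upper quartile scaling, while DESeq2 gave 593 and 784 and limma voom 453 and 640. With 1 library left out, higher calls ran from 179 to 407 and lower calls from 353 to 653.

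The difference from the 3x4Gy response had 1 call with DESeq2 and with no filter, and 0 to 1 with 1 library left out. The mocks had 2 with DESeq2 and 0 to 1 with 1 left out. The 51 day differences became 228 with DESeq2, 85 with no filter, 32 with at least 5 CPM, 16 with the replicate block, 5 with upper quartile scaling, 3 with limma voom, 1 at an adjusted p below 0.01, and 1 to 110 with 1 library left out. The difference in reads outside genes was 5.54 to 7.78 percentage points with 1 left out (exact permutation p up to 0.0595; 6.29, 6.30 and 6.72 at that p). The causes were not tested.

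Uncalled genes changed sign in some fits. Ptprc was at -0.022 with library size only, -0.039 with the score and -0.22 with the outside share as a covariate. With the score Arg1 was at -0.50, S100a8 at -0.38 and Col1a1 at 0.41, and with the outside share Csf1r was at 0.077 and Cxcl10 at 0.17. With 1 library left out Arg1 ran from -0.67 (without 1x20Gy library 2) to 1.64, Cxcl10 from -0.14 to 0.044 (0.0054 without 1x20Gy library 4, 0.044 without 1x0Gy library 3), and Cd8a from -0.066 (without 1x0Gy library 4; -0.056 without library 3) to 0.53.

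Same-numbered libraries had correlations of 0.0047, 0.205, 0.106 and -0.255 in their deviations. A replicate block gave 422 higher and 454 lower calls, 742 of them among the 1028. Intervals were not formed, and genes under the count filter could not be tested at this depth.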

Other observations

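Further gene lists held a few called members, beside 3.67% of all genes called higher and 4.88% called lower. Of 14 suppressive and alternatively activated myeloid genes 4 rose and 1 fell (median 0.74), of 14 monocyte genes 1 rose (0.39), and of 21 chemokine and adhesion receptors 2 rose (0.41). The higher count of the suppressive list was 2 without 1x20Gy library 6 or 1x0Gy library 1 or 4. That of the monocyte list was 0 without 1x20Gy library 4 or 5 or 1x0Gy library 3 or 4. That of the receptors was 0 without 1x20Gy library 5 or 1x0Gy library 3 or 4. The summed level of 9 plasmacytoid dendritic cell markers was 572 to 679 CPM in 1x20Gy and 836 to 896 CPM in 1x0Gy, without overlap, though Bst2 was the 1 member called. The list's median was 0.10 and 5 of the 9 had positive values, so the lower sum does not describe most members. The summed level of 5 imprinted growth genes was 4.35 to 12.1 CPM in 1x20Gy and 34.5 to 46.7 CPM in 1x0Gy, with Peg3 and H19 called lower in all 10 fits that leave out 1 library.

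Genes outside the naming rule, chosen here after their values were seen, include some that were called both with and without the epithelial and fibroblast score. Rab11fip1, of recycling endosomes, had a log2 fold change of 1.41 (edgeR adjusted p = 1.4e-06; 1.26 with the score), Mxd1, a MYC antagonist, 1.01 (4.46e-05; 0.83), and Clec4e, the pattern receptor Mincle, 1.87 (0.000101; 1.44). Gpr34, a receptor of microglia and macrophages, was at -1.39 (0.000116; -1.34 with the score) and Vkorc1, of vitamin K recycling, at -1.23 (0.000841; -1.57).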
